A study of Arabidopsis thaliana with 8 samples.

Results

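The leaves treated with clothianidin were compared with the leaves treated with salicylic acid, 4 of the 8 arrays in the study and 2 arrays per treatment, chosen by their treatment labels alone. Clothianidin is a neonicotinoid insecticide, taken up by roots and carried into leaves, and salicylic acid is the plant hormone of defence against biotrophic pathogens. All plants were Arabidopsis thaliana of strain Columbia-0, wild type, 4 weeks old at treatment, given either compound at 4 mM and harvested on day 4. The other 4 arrays, 2 of untreated leaves and 2 of leaves given 4 mM imidacloprid, another neonicotinoid, had the same strain, age and harvest day. They served to place the differences. The labels name no mock treatment for the untreated plants. Each RNA sample came from fully expanded mature leaves, 1 sample from each of 2 independent experiments, and the labels do not say which experiment a replicate number marks or how many plants gave the leaves. Total RNA was measured on Affymetrix arrays, and each value is a log2 level of a probe set, a group of short probes for a transcript. A difference of 1 is thus 2-fold.

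In Arabidopsis, salicylic acid is made in response to infection, is sensed by the NPR1 family of proteins, and drives the expression of defence genes. Its level is held in check by enzymes that attach sugars, methyl groups or amino acids to it. Leaves respond to foreign chemicals with a different set, the glycosyltransferases, glutathione S-transferases, cytochromes P450 and transporters of detoxification, and with small heat shock proteins and oxidoreductases when proteins or redox balance are disturbed. The comparison asks how far the leaves given the insecticide resembled those given the hormone, and in which genes they parted.

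The leaf label was checked against photosynthesis genes, all 5 of which were far above the mean 25th percentile on each of these arrays. RCA, which keeps Rubisco active, was at 14.36 and 14.03 on the clothianidin arrays and at 14.37 and 13.22 on the salicylic acid arrays (replicate 1 first, here and throughout). Of the markers listed for guard cells, phloem, xylem, epidermis, root and flower, only FMA, a guard cell factor, and a pollen gene, AT5G45880, had a named probe set. FMA was at 4.59 and 5.09 in clothianidin and at 5.59 and 4.56 in salicylic acid leaves, and AT5G45880 lay between 2.32 and 2.38 on these 4 arrays, below the mean 25th percentile of the arrays, 2.49. In whole leaves, fewer cells of a type and less RNA per cell cannot be told apart.

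The 2 salicylic acid arrays stood further from each other than any other pair among these 4 arrays. The standard deviation (SD) of their difference over 22746 probe sets was 1.14, and 77.1% of probe sets lay within 2-fold. For the clothianidin pair the SD was 0.763, with 87.9% within 2-fold. Salicylic acid replicate 1 was closer to both untreated arrays (SD 0.676 and 0.652) than to salicylic acid replicate 2. A mean over the salicylic acid arrays thus averages an array near the untreated leaves with one further away. Clothianidin replicate 2 was likewise closer to untreated replicate 2 (SD 0.596) than to clothianidin replicate 1. The actin control probes, whose 3' minus 5' gap widens when RNA is shorter, gave 1.04 and 1.75 on the clothianidin arrays and 0.74 and 1.41 on the salicylic acid arrays. The untreated arrays gave 0.85 and 2.17, the latter the widest gap of all, and the imidacloprid arrays 0.87 and 1.11. The actin gap was wider on replicate 2 in all 4 groups. The gap of the GAPDH control probes was narrower on replicate 2 with imidacloprid, at 0.37 and 0.25, and wider on it in the other groups. The part of either gap in the results was not tested.

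By their means, clothianidin and salicylic acid leaves were the most alike of the 6 pairs of groups. The SD of the mean difference was 0.378, against 0.632 for untreated and clothianidin, 0.679 for untreated and salicylic acid, 0.925 for clothianidin and imidacloprid, 0.913 for imidacloprid and salicylic acid, and 1.29 for untreated and imidacloprid. These SDs are a description, with no test between pairs. The mean difference, clothianidin minus salicylic acid, was under 2-fold for 97.4% of probe sets and under 0.5 for 86.4%. It ran from -3.25 to 3.99, with 336 probe sets (1.48%) at least 2-fold higher with clothianidin and 256 (1.13%) with salicylic acid. Means of 2 arrays hide how the single arrays stood: clothianidin 1 and salicylic acid 1 differed with an SD of 0.640, clothianidin 2 and salicylic acid 2 with 0.707, clothianidin 2 and salicylic acid 1 with 0.777, and clothianidin 1 and salicylic acid 2 with 0.965. All 4 were well above the 0.378 of the means. They were also above the SD of 0.596 between clothianidin 2 and untreated 2.

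The single-array differences largely ran in opposite directions. Across genes, which are not independent replicates, the difference of the replicate 1 arrays and that of the replicate 2 arrays correlated at r = -0.374, and 34.6% of probe sets had the same sign in both. Where both differences passed 2-fold, 84 probe sets had the same sign and 639 the opposite sign. With the arrays matched the other way, r was -0.643, with 46 against 1775. The low mean difference thus went with single-array differences of opposite sign, whichever way the arrays were matched.

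**Figure D1:**
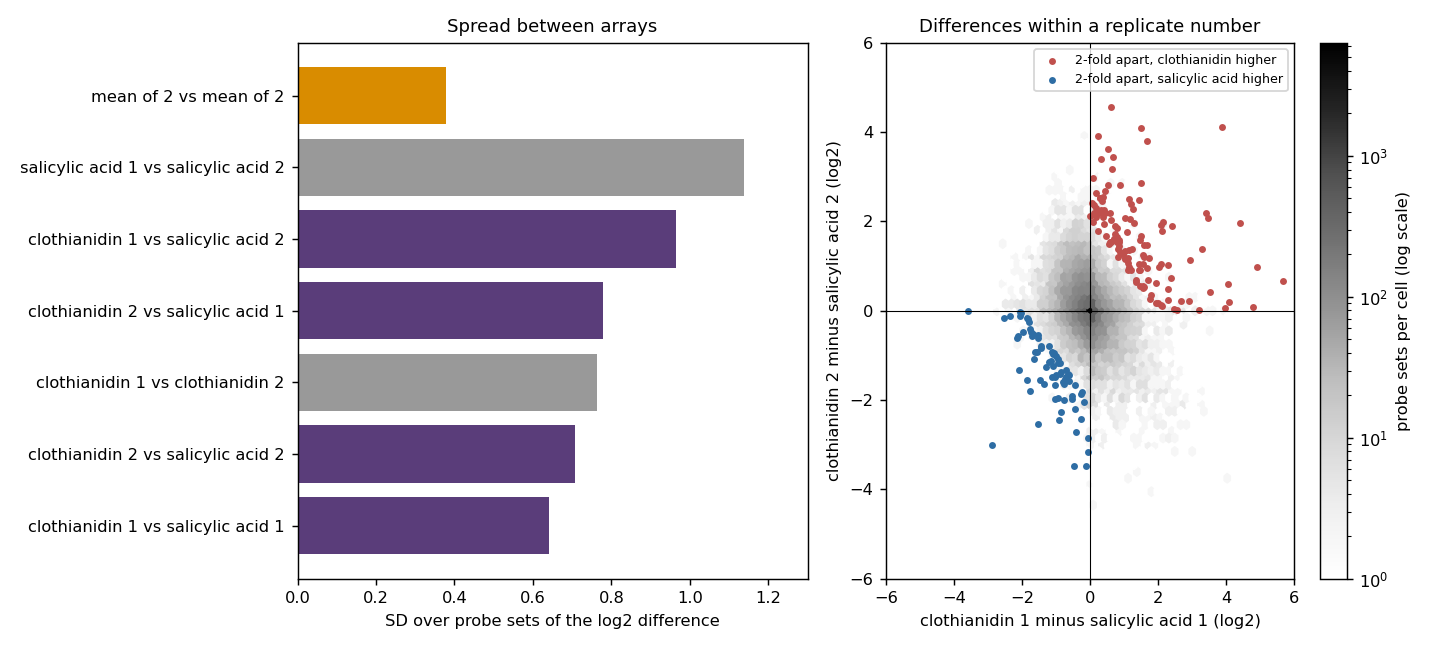
Left, the SD over 22746 probe sets of the log2 difference for each pair of single arrays (grey, the same treatment; purple, different treatments) and, in orange, of the difference between the means of 2 arrays. Right, the difference of the replicate 1 arrays (x, log2) against that of the replicate 2 arrays (y, log2), with the density of probe sets in grey on a log scale; the grey cloud slopes downwards (r = -0.374), and the coloured probe sets, which had to have the same sign on both axes, lie at the upper right and lower left.

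No probe set passed the test of clothianidin minus salicylic acid. In limma, with all 8 arrays in a fit and Benjamini-Hochberg adjustment over all probe sets, 0 of 22746 (0%) were called and the smallest adjusted p was 1.00. At an unadjusted p under 0.05 there were 277 (1.22%), of which 147 (0.646%) were higher with clothianidin and 130 (0.572%) with salicylic acid. That share is below the 0.05 that the threshold itself would give on average with no difference. A result short of the threshold does not show that the leaves were alike, so the interval of each difference was read as well. The 95% interval lay wholly within 2-fold either way for 11584 probe sets, 50.9%, and the median half-width of the interval was 0.771.

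Likeness could be bounded mainly where there was little signal. With probe sets split by mean level into 4 bins of equal size, 97.2% of intervals lay within 2-fold in the lowest bin, which ended at 2.54. In the next bins, up to the highest, it was 48.0%, 27.8% and 30.7%. Over all probe sets, 39.3% had a half-width above 1, so a 2-fold difference there could not be told from none.

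Counting arrays in place of a test, both clothianidin arrays lay above both salicylic acid arrays in 1892 probe sets (8.32%), and both lay below in 1377 (6.05%). When the means also had to be 2-fold apart, 126 probe sets (0.554%) were higher with clothianidin and 75 (0.33%) with salicylic acid. With each array centred on its median the split was 97 and 93. Of the 201 together, 95 had a single named locus, 58 and 37. The same rule separated 1216 probe sets between untreated and clothianidin leaves, 1066 between untreated and salicylic acid, and 3683 between clothianidin and imidacloprid. The exact permutation test for 1 probe set has a smallest two-sided p of 0.333 with these group sizes.

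**Figure D2:**
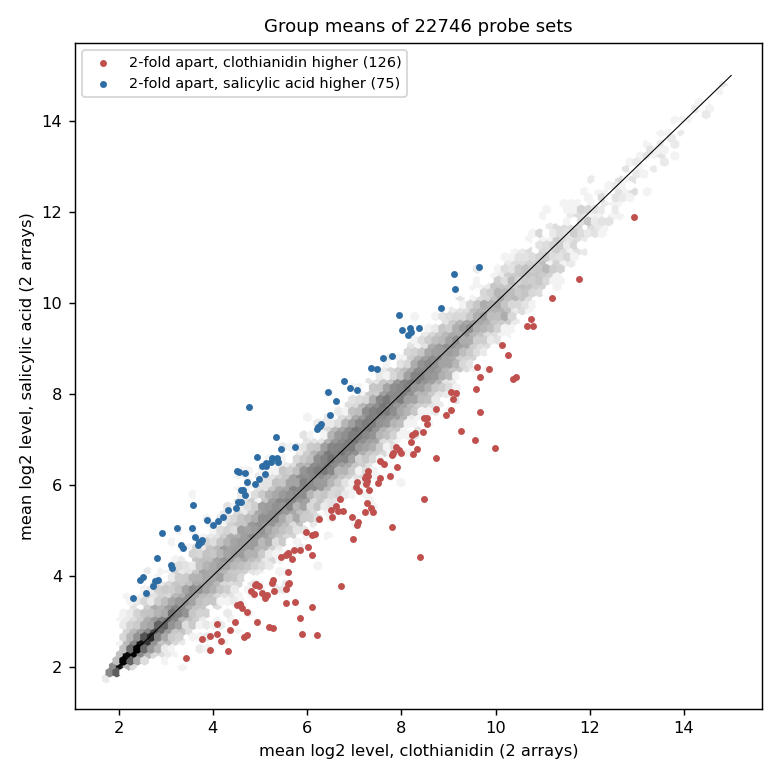
Mean log2 level of 22746 probe sets on the 2 salicylic acid arrays (y) against the 2 clothianidin arrays (x), with density in grey and the line of equal levels. The 126 probe sets in red and 75 in blue are 2-fold apart with no overlap of arrays, and most of the rest lie along the line (97.4% within 2-fold).

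Genes of salicylate metabolism that were measured did not move as a block. UGT76B1, which glucosylates salicylic acid and the related isoleucic acid, was at 3.72 and 2.65 with clothianidin and at 3.59 and 5.91 with salicylic acid. Only salicylic acid replicate 2 stood clearly above the others, the groups overlapped, and the difference was -1.57 (95% interval -4.16 to 1.03). BSMT1, the methyltransferase that makes volatile methyl salicylate, was at 6.25 and 2.29 with clothianidin and at 2.32 on both salicylic acid arrays. A single clothianidin array was high, and both imidacloprid arrays were high as well, at 5.98 and 6.52. UGT74F1, another salicylate glucosyltransferase, lay between 2.50 and 2.55 on all 4 arrays, near background. AT5G52810, the only measured gene of 9 listed for salicylic acid synthesis and the pathways beside it, was at 7.37 and 7.04 and at 5.70 and 8.65, so the clothianidin arrays lay inside the range of the salicylic acid arrays.

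Of 25 listed genes of salicylic acid signalling, 3 were measured, with a median difference of -0.24 against 0.00 over all probe sets. WRKY53, a transcription factor of senescence and defence, was at 9.28 and 10.10 with clothianidin and at 6.44 and 12.67 with salicylic acid. GRX480, a glutaredoxin that is a classical early target of salicylic acid, was at 8.66 and 8.10 and at 7.15 and 10.10. SAG101, a lipase-like partner of EDS1, was at 5.47 and 4.99 and at 4.74 and 6.86. Untreated leaves were at 3.75 and 6.89 for WRKY53, at 3.39 and 8.47 for GRX480 and at 3.31 and 5.64 for SAG101. In each gene untreated replicate 2 lay above salicylic acid replicate 1. In all 3 the clothianidin arrays sat inside the range set by the salicylic acid arrays, so their mean differences, 0.14, -0.24 and -0.57, are averages of a salicylic acid array below and one above.

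The receptors and kinases of pattern recognition gave 2 measured genes of 14. BIK1, a receptor-like cytoplasmic kinase, was at 8.0 and 7.46 with clothianidin and at 7.36 and 8.62 with salicylic acid. EFR, the receptor of bacterial elongation factor Tu, was at 4.72 and 4.61 and at 3.13 and 5.94. Again both clothianidin arrays lay within the salicylic acid range. The jasmonate and ethylene list had 3 of 29 measured. EIN3, the master transcription factor of ethylene signalling, was at 9.25 and 8.85 with clothianidin and higher, at 9.34 and 9.65, with salicylic acid, a difference of -0.44 (95% interval -0.89 to 0.00). PDF1.2 and PDF1.2b, the defensins of the jasmonate and ethylene branch, lay between 2.65 and 4.01.

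To describe what both treatments had in common without using the difference between them, the mean of the 4 treated arrays was set against the untreated arrays. No probe set passed the adjusted threshold in limma (0 of 22746, 0%, smallest adjusted p 0.222), and 799 (3.51%) had an unadjusted p under 0.05. All 4 treated arrays lay above both untreated arrays, by at least 2-fold in the means, in 445 probe sets (1.96%), and below in 267 (1.17%). That rule limits how far apart the 2 treatments can lie, since every treated array has to pass the untreated ones.

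The median level of the 445 higher probe sets was 3.73 and 4.55 on the untreated arrays, 7.30 and 6.29 with clothianidin, 6.04 and 7.78 with salicylic acid, and 8.53 and 8.16 with imidacloprid. Replicate 1 was the higher of the clothianidin arrays and replicate 2 the higher of the salicylic acid arrays, and the ranges overlapped. The median of clothianidin minus salicylic acid over these probe sets was -0.18, and 79.1% were within 2-fold, against 97.4% of all. The interval of the difference lay within 2-fold for only 5 of the 445, so equality at this resolution was not shown for nearly all of them. There were 12 with clothianidin and 19 with salicylic acid higher by 2-fold with no overlap. Over all 22746 probe sets these counts were 126 (0.554%) and 75 (0.33%). The 445 also had wider intervals, with a median half-width of 2.48 against 0.771 over all probe sets.

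The 267 lower probe sets had medians of 6.30 and 5.99 untreated, 4.90 and 4.72 with clothianidin, 5.20 and 3.77 with salicylic acid, and 3.50 and 3.59 with imidacloprid. Salicylic acid replicate 1 kept the highest level of the treated arrays and replicate 2 went below both clothianidin arrays. The median of clothianidin minus salicylic acid was 0.23, and 93.6% were within 2-fold.

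Among named genes, the chitinase CHI and the zinc finger factor STZ were among the furthest above the untreated leaves in both treatments, and none of these genes passed the adjusted test. CHI, a chitinase that breaks down fungal cell walls, was at 2.44 and 5.20 untreated, at 11.35 and 9.45 with clothianidin and at 8.82 and 11.42 with salicylic acid. Its difference between the treatments was 0.28 (95% interval -3.66 to 4.22). STZ, a zinc finger repressor of salt and cold responses also called ZAT10, was at 3.95 and 7.54 untreated, at 11.04 and 10.70 with clothianidin and at 10.71 and 11.47 with salicylic acid. The 4 treated arrays were close together while the untreated arrays were far apart.

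AT3G18250 was at 9.09 and 6.30 with clothianidin, at 7.19 and 9.01 with salicylic acid, and at 2.45 and 2.86 untreated. AT5G39670, an EF-hand calcium-binding protein, was at 7.94 and 7.84 and at 5.79 and 11.16, from 2.46 and 3.52 untreated. AT1G05340, a small cysteine-rich membrane protein, was at 9.37 and 8.75 and at 6.70 and 10.14, from 2.92 and 4.47. In AT5G39670 and AT1G05340 the salicylic acid arrays were the further apart, in AT3G18250 the clothianidin arrays, and the groups overlapped in all 3. AT2G18690 had the widest salicylic acid gap of the 8 genes furthest above untreated, at 5.65 and 11.47, with clothianidin at 9.74 and 7.73.

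JRG21, a jasmonate-regulated oxygenase, was the exception in the order of its arrays. It was at 10.87 and 5.91 with clothianidin and at 9.21 and 5.28 with salicylic acid, from 2.97 and 2.99 untreated, so replicate 1 was the higher in both treatments. AT1G65500 had replicates close together, at 7.35 and 6.78 with clothianidin and at 8.07 and 8.11 with salicylic acid, from 3.18 and 2.31. Both salicylic acid arrays lay above both clothianidin arrays, by 1.03 (interval of clothianidin minus salicylic acid -2.27 to 0.22). GH3.3, which conjugates auxin to amino acids, was at 9.61 and 7.82 and at 7.17 and 9.36, from 2.90 and 4.94 untreated. WRKY6, a senescence and defence factor, was at 6.49 and 5.37 and at 4.74 and 6.66, from 2.58 and 3.66.

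Genes lower than untreated on all 4 arrays included a growth peptide and a sugar transporter. RALFL34, a secreted peptide of the RALF growth-control family, was at 10.36 and 9.58 untreated, at 8.44 and 8.20 with clothianidin and at 8.76 and 6.43 with salicylic acid. SWEET16, a vacuolar sugar transporter, was at 6.04 and 6.63, then 5.19 and 2.62, then 5.69 and 3.25 in the same order. MSRB6, a methionine sulfoxide reductase, went from 11.32 and 10.53 to 9.22 and 5.48 with clothianidin and to 10.07 and 3.58 with salicylic acid. In RALFL34, SWEET16 and MSRB6 replicate 2 was the lower array in both treatments. Of the other genes furthest below untreated, AT1G12010, AT3G06770, AT3G48490 and AT5G41140 had the same order. AT1G56720 had it with salicylic acid only.

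AT1G12010, an enzyme of ethylene synthesis, was at 5.39 and 4.78 untreated, at 2.52 and 2.49 with clothianidin and at 3.77 and 2.47 with salicylic acid, so 3 of the 4 treated arrays were near background. AT5G41140 was at 6.02 and 4.48 untreated and between 2.81 and 3.34 on all 4 treated arrays, a difference between treatments of 0.22 (95% interval -1.19 to 1.64). AT3G08630, named from earlier work on these data, had a narrow interval. It was at 4.1 and 4.20 untreated, 3.00 and 2.80 with clothianidin and 2.74 on both salicylic acid arrays, a difference of 0.16 (-0.06 to 0.38).

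**Figure D3:**
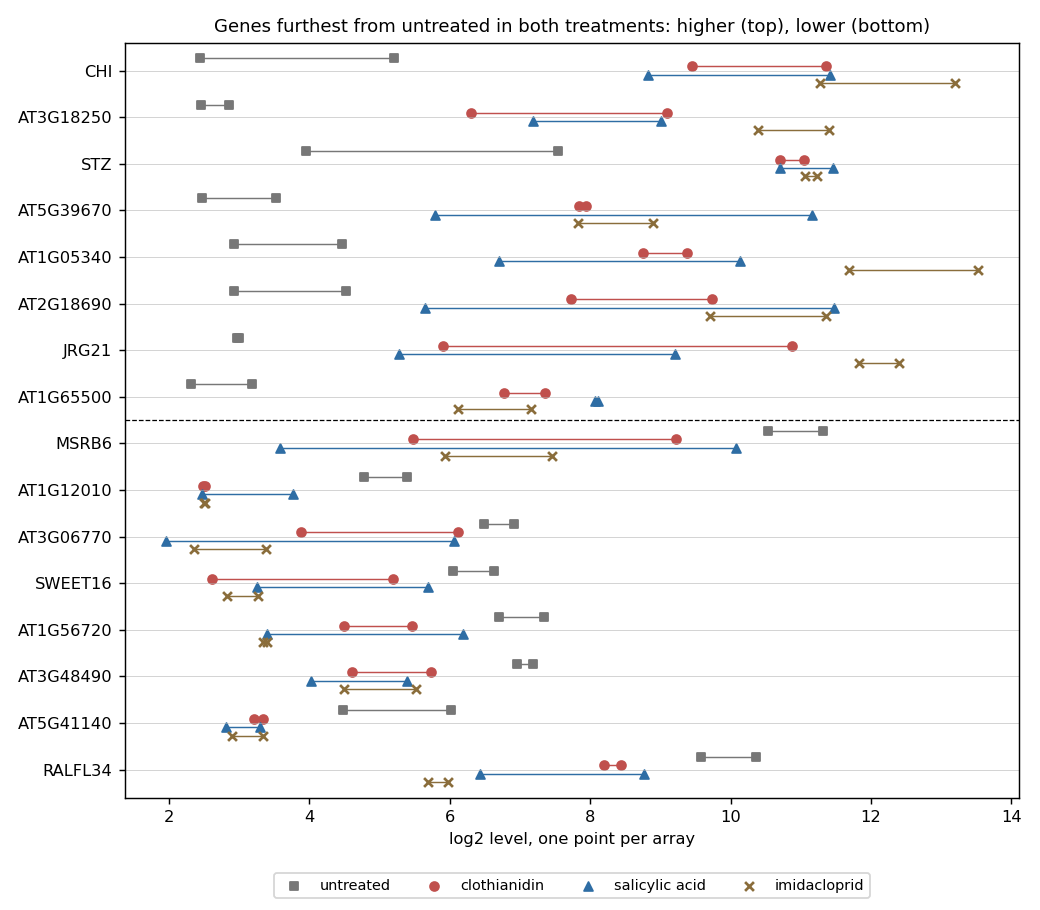
Log2 levels, 1 point per array and a line between the 2 arrays of a group, for the 8 named genes furthest above (top) and 8 furthest below (bottom) untreated leaves on all 4 clothianidin and salicylic acid arrays. The clothianidin and salicylic acid lines overlap in 7 of the upper 8; AT1G65500 does not overlap, with salicylic acid higher.

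Where the leaves parted, AT5G52390, ATHSP22.0 and AT3G04000 were among the named genes with clothianidin higher and an interval that excluded 0. The 10 genes described are those with the largest differences among named genes whose arrays did not overlap, and none passed the adjusted test. AT5G52390, a PAR1-type protein, was at 5.87 and 5.82 with clothianidin and at 2.41 and 3.75 with salicylic acid, a difference of 2.76 (95% interval 1.43 to 4.1). Untreated leaves were at 2.40 and 2.58 and imidacloprid leaves at 2.97 and 2.17, so the clothianidin arrays stood above all the others. ATHSP22.0, a small heat shock protein of the endoplasmic reticulum, was at 5.88 and 4.50 against 2.60 and 3.12, a difference of 2.33 (0.99 to 3.67). AT3G04000, a chloroplast aldehyde reductase that clears reactive carbonyls, was at 9.36 and 8.12 against 6.95 and 6.22, a difference of 2.16 (0.71 to 3.6). For ATHSP22.0 and AT3G04000 both imidacloprid arrays were also high, at 6.54 and 6.88 and at 9.03 and 9.72.

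AT1G26390, of the berberine bridge enzyme-like family, had the largest named difference, 3.99, and also the widest spread. It was at 10.18 and 6.61 with clothianidin and at 6.31 and 2.50 with salicylic acid, so replicate 1 was far above replicate 2 in both groups, and the interval ran from -2.94 to 10.91. AT2G16890, a UDP-glycosyltransferase, was at 5.65 and 3.80 against 2.72 and 2.66, with untreated and imidacloprid arrays between 2.28 and 2.79. Its difference was 2.04 (0.41 to 3.66). AT1G55790 was at 5.87 and 2.76 against 2.35 and 2.34, so the difference rested on a single clothianidin array.

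The other 4 of these genes were expressed in untreated leaves and were low on 1 or both salicylic acid arrays. AT1G78450, a SOUL-type haem-binding protein, was at 4.98 and 7.22 with clothianidin, at 3.50 and 3.12 with salicylic acid and at 3.48 and 6.24 untreated. AT2G14900, a gibberellin-regulated peptide, was at 5.40 and 4.46 against 3.29 and 2.67, with 5.26 and 3.93 untreated. AT2G38870, a protease inhibitor of the PR-6 type, was at 9.78 and 9.56 against 9.55 and 5.64. AT2G34510, a cell wall protein, was at 9.23 and 9.28 against 8.71 and 5.67. In AT2G38870 and AT2G34510 only salicylic acid replicate 2 was far from the clothianidin arrays.

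On the salicylic acid side, AT5G39520 had the largest named difference. It was at 4.03 and 5.49 with clothianidin, at 6.93 and 8.49 with salicylic acid and at 2.83 and 2.20 untreated, a difference of -2.95 (95% interval -5.30 to -0.60). Both treatments lay above untreated leaves and the imidacloprid arrays were higher still, at 9.90 and 11.57. SIS, a salt-induced serine-rich protein, had a like order, at 6.98 and 6.30 untreated, 7.93 and 8.11 with clothianidin and 8.71 and 10.11 with salicylic acid. AT3G46280, a kinase-like protein, was at 3.81 and 3.35 with clothianidin and at 4.29 and 6.83 with salicylic acid.

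In several of the others the difference rested on salicylic acid replicate 2. AT3G28580, a P-loop ATPase, was at 3.2 and 3.29 against 3.32 and 6.77. AtLEA4-1, a late embryogenesis abundant protein of water deficit, was at 2.81 and 2.80 against 3.24 and 5.53. AT3G19550 was at 2.47 and 2.45 against 2.52 and 5.29. In these 3 genes salicylic acid replicate 1 stood close to the clothianidin arrays.

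AT4G29700, a nucleotide pyrophosphatase, was at 6.16 and 7.06 untreated, 4.98 and 4.14 with clothianidin and 7.09 and 5.46 with salicylic acid, and both clothianidin arrays lay below the untreated and salicylic acid arrays. scpl20, a serine carboxypeptidase-like protein, was at 4.64 and 6.23 with clothianidin against 6.76 and 6.79, close to the untreated 6.76 and 6.51. AT5G14940, a transporter of the nitrate and peptide family, was at 5.49 and 3.89 against 6.35 and 6.17. AR791 was at 4.02 and 6.05 against 6.16 and 6.64, so its groups nearly met.

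**Figure D4:**
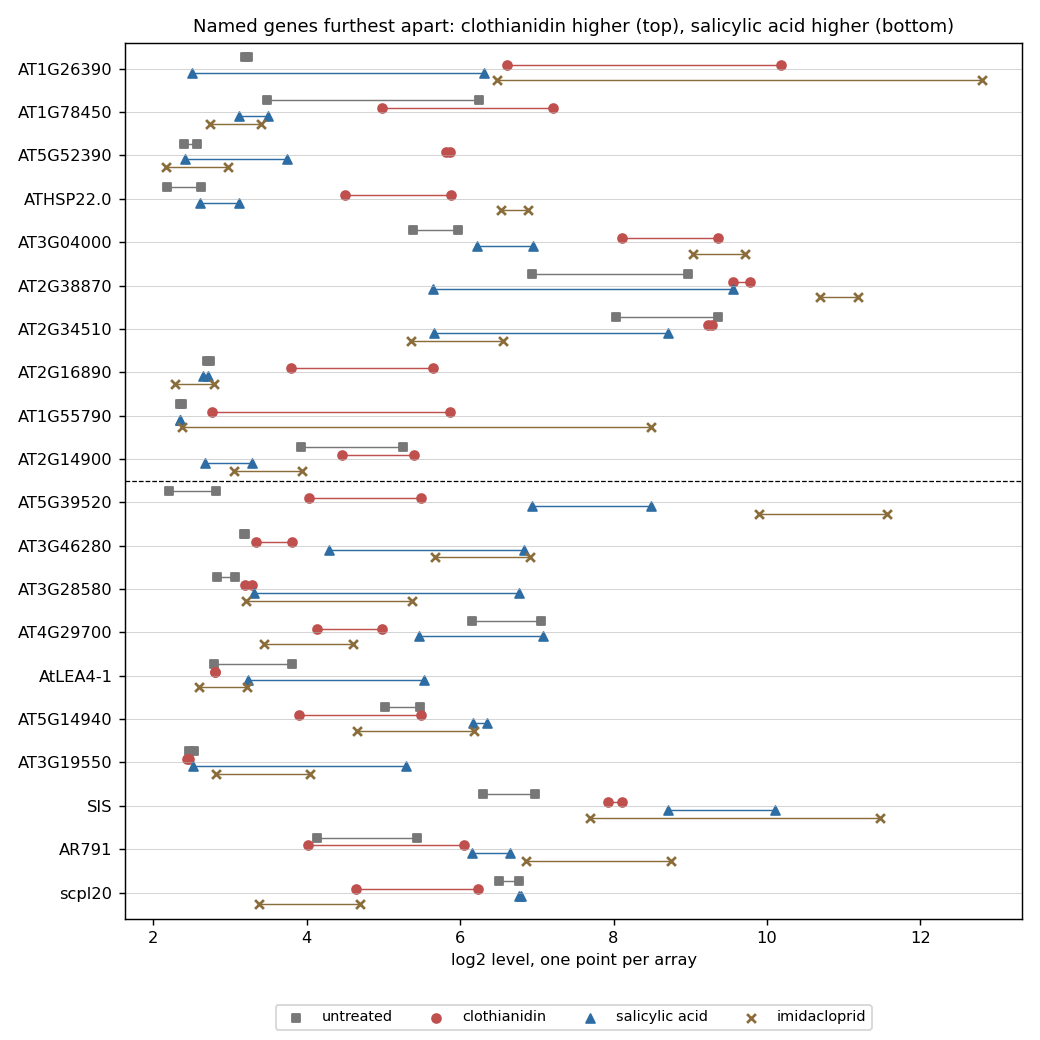
Log2 levels, 1 point per array and a line between the 2 arrays of a group, for the 10 named genes with the largest clothianidin excess (top) and the 10 with the largest salicylic acid excess (bottom) among genes whose arrays do not overlap. AT5G52390 has its 2 clothianidin arrays at 5.87 and 5.82 and every other array at 3.75 or lower; AT3G28580 and AT3G19550 rest on 1 salicylic acid array.

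The genes with the smallest unadjusted p had smaller differences and tight replicates. AT1G45110, a tetrapyrrole methylase family protein, was at 4.80 and 4.64 with clothianidin, at 3.21 and 3.18 with salicylic acid and at 4.05 and 3.89 untreated. Its difference was 1.53 (95% interval 1.24 to 1.82), and the untreated arrays lay midway between the treatments. GID1C, a gibberellin receptor, had the opposite order, at 4.64 and 4.91 with clothianidin, 5.82 and 5.71 with salicylic acid and 5.34 and 5.42 untreated, a difference of -0.99 (-1.46 to -0.53). AT1G32580, of the family of organelle RNA editing factors, was at 7.41 and 7.43 against 6.81 and 6.90.

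The others with clothianidin higher were AT2G42710, a ribosomal protein, AT2G21290 and AT4G10270, a wound-responsive protein, with differences of 0.44, 0.44 and 0.59. With salicylic acid higher they were REV7, a subunit of a translesion DNA polymerase, AT2G19350, DER2.2, a derlin of protein disposal from the endoplasmic reticulum, and CYP71B38, a cytochrome P450. The first 3 differed by -0.52, -0.67 and -0.34. CYP71B38 was at 2.40 and 2.31 with clothianidin, below the mean 25th percentile of 2.49, and at 2.59 and 2.66 with salicylic acid, so no size is given for it. Over all probe sets, 1.22% had an unadjusted p under 0.05, and these 10 genes were picked as the smallest, so their p-values carry no separate weight.

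Relative to the untreated arrays, 72 of the 126 probe sets with clothianidin higher had the untreated mean between the treatments, 30 had it below both and 24 above both. Of the 75 with salicylic acid higher, the untreated mean was between in 33, below both in 35 and above both in 7. Over all 22746 probe sets it was between in 4657, below both in 5806 and above both in 12283. Treatment means chosen to be 2-fold apart leave more room for an untreated mean between them. The counts thus cannot be compared directly with those over all probe sets. Over all probe sets, both clothianidin arrays lay above and both salicylic acid arrays below the untreated arrays in 74 (0.325%), and the reverse held in 56 (0.246%).

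The listed stress genes gave the widest range of group medians. All 3 measured small heat shock genes, of 14 listed, were higher with clothianidin, with a median difference of 2.33 against 0.00 over all probe sets. Beside ATHSP22.0, AT5G37670 was at 6.73 and 5.11 against 5.25 and 5.02, and AT1G52560 at 8.53 and 2.71 against 3.22 and 2.49. In AT5G37670 and AT1G52560, clothianidin replicate 1 was far above the other 3 arrays and replicate 2 was not. Without clothianidin replicate 1 the median of the list was -0.03. AT2G29500, a cytosolic small heat shock gene chosen after its values were seen, was at 10.19 and 6.18 against 6.19 and 7.23, from 3.04 and 3.23 untreated, and showed no separation.

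All 5 measured genes of abscisic acid, drought and cold, of 28 listed, had the higher mean with salicylic acid, with a median of -0.59, and in all 5 the arrays overlapped. COR15A and COR15B, chloroplast proteins that protect membranes in the cold, were at 9.72 and 13.57 and at 8.96 and 11.73 with clothianidin. With salicylic acid they were at 12.35 and 12.12 and at 12.11 and 10.56. Clothianidin replicate 1 was the low array in both. COR47 and LTI30, dehydrins, differed by -0.27 and -0.77.

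The phenylpropanoid and lignin list had 7 of 24 genes measured, 6 with the higher mean in salicylic acid, and a median of -0.54. AT2G37130, a class III peroxidase, was at 6.05 and 4.71 with clothianidin and at 6.76 and 6.22 with salicylic acid, from 2.31 and 2.05 untreated, a difference of -1.11 (95% interval -2.36 to 0.14). AT5G64120, another peroxidase, differed by -0.00 (-3.93 to 3.92), at 8.57 and 7.42 against 7.76 and 8.23. BGLU45, a glucosidase of monolignol glucosides, was at 3.3 and 2.91 against 3.95 and 3.53, both far below the imidacloprid arrays at 8.66 and 7.71. CCR2 and PRX52, of lignin synthesis, went opposite ways on single arrays, with CCR2 at 7.23 on salicylic acid replicate 2 and PRX52 at 5.67 on clothianidin replicate 1, and all their other values on these 4 arrays between 2.14 and 4.31.

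Of 6 measured flavonoid and anthocyanin genes, 3 were high on 1 array of each treatment. DFR, which commits flavonoids to anthocyanin, was at 2.33 and 4.85 with clothianidin and at 7.56 and 2.16 with salicylic acid. UF3GT, which adds a sugar to anthocyanin, was at 2.62 and 4.62 and at 6.11 and 2.83, and AT4G14090, an anthocyanin glucosyltransferase, at 2.24 and 4.57 and at 5.00 and 2.69. Clothianidin replicate 2 and salicylic acid replicate 1 were the high arrays in all 3, and the untreated arrays were between 2.17 and 2.53. CHIL and AT5MAT lay between 1.98 and 2.32 on these arrays, near background, and UGT78D2, a flavonoid glucosyltransferase, was at 6.38 and 7.02 against 6.74 and 5.84. The list, with 6 of 22 measured, had a median of -0.24.

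Of 22 listed aliphatic glucosinolate genes 3 were measured. UGT74B1, which glucosylates the glucosinolate core, was at 9.47 and 9.83 with clothianidin, 10.23 and 11.36 with salicylic acid and 10.17 and 10.58 untreated. Both clothianidin arrays lay below all 4 of those, and the difference from salicylic acid was -1.14 (95% interval -2.22 to -0.06). BCAT4, which starts methionine chain elongation, was at 11.31 and 10.62 against 12.43 and 10.49.

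Detoxification genes were measured in 9 of 28 cases, with a median of 0.30 and 6 higher with clothianidin. UGT76E12 was at 5.16 and 2.46 with clothianidin and at 2.83 and 2.55 with salicylic acid, and UGT73C1, which glucosylates small foreign molecules, at 5.18 and 3.71 against 3.96 and 3.57. UGT87A2 and AT2G04070, the latter a MATE transporter, were highest on salicylic acid replicate 2, at 11.31 and 8.52. GSTU25, a glutathione S-transferase, lay between 2.54 and 2.62 on all 4 arrays. No member had a 2-fold difference without overlap of arrays.

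Redox genes had a median of 0.12 over 5 of 23 measured. AT2G21640, an oxidative stress marker, was at 7.92 and 6.65 with clothianidin and at 6.71 and 5.95 with salicylic acid, a difference of 0.95 (95% interval -0.62 to 2.53). The 4 measured genes of endoplasmic reticulum stress, of 16, had a median of -0.20. BZIP60, a transcription factor of the unfolded protein response, was at 9.53 and 8.44 against 8.07 and 10.24, and ATERDJ3B, a luminal co-chaperone, at 10.42 and 8.73 against 8.79 and 9.67. In both, clothianidin replicate 1 and salicylic acid replicate 2 were the high arrays.

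Sugar transport, auxin response and senescence lists had medians of -0.12, -0.01 and 0.23 over 6, 5 and 3 measured genes. SWEET13, a sucrose exporter of the phloem route, was at 4.17 and 4.98 with clothianidin and at 6.93 and 4.70 with salicylic acid. SWEET11, of the same role, was at 11.79 and 11.44 against 12.24 and 11.82. SAG29, also SWEET15, was high only on clothianidin replicate 2, at 6.82, with 2.12 on replicate 1 and 3.84 and 4.55 with salicylic acid.

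**Figure D5:**
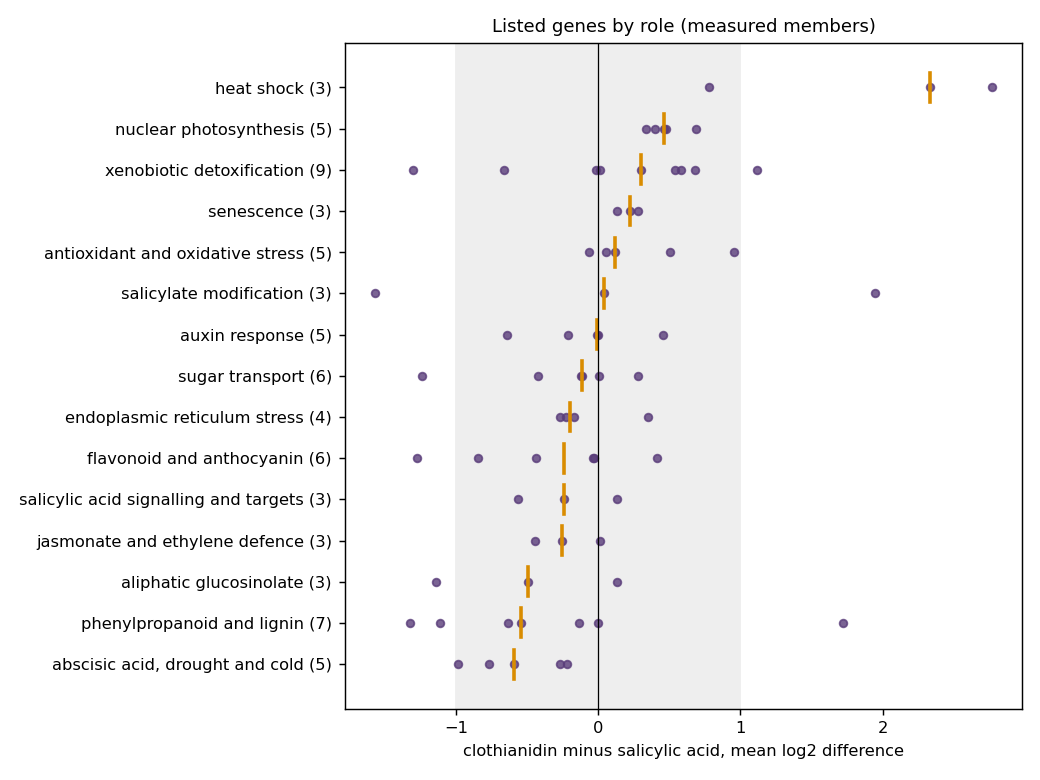
Difference of group means, clothianidin minus salicylic acid (log2), for each measured member (purple points) of the 15 gene lists with at least 3 measured, with the number measured in brackets, the list median as an orange bar and the range within 2-fold shaded. Only heat shock has a median beyond 2-fold (2.33), and that rests on clothianidin replicate 1.

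Photosynthesis genes of the nucleus had higher means with clothianidin in 5 of 5 measured genes of 41 listed, with a median of 0.46. SBPASE, of the Calvin cycle, was at 11.98 and 11.48 with clothianidin, 12.28 and 9.79 with salicylic acid and 12.41 and 11.65 untreated. PRK, which makes the acceptor of carbon dioxide, was at 13.11 and 12.61 against 13.31 and 11.45, PORB, of chlorophyll synthesis, at 11.77 and 11.10 against 12.36 and 9.58, and LHCB4.1, an antenna protein, at 14.04 and 13.63 against 14.17 and 12.84. In all 5 genes salicylic acid replicate 1 was the highest of the 4 arrays and replicate 2 the lowest. LHCB4.3, an antenna gene chosen after its values were seen, did part, at 8.28 and 8.65 against 7.05 and 7.28, with untreated leaves at 7.07 and 7.28.

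The 69 genes encoded in the plastid had a median difference of 0.14, with 48 higher with clothianidin and 21 with salicylic acid. Their median difference was -0.09 between the replicate 1 arrays and 0.42 between the replicate 2 arrays. None was 2-fold apart without overlap, and 38 intervals lay within 2-fold. The 23 mitochondrion-encoded probe sets, grouped after their values were seen, had a median of 0.19 between the treatments. They were higher on replicate 2 than on replicate 1 in 20 of 23 cases with clothianidin and 22 with salicylic acid, and in 22 untreated and 20 with imidacloprid. Their median level was 5.98 and 7.23 with clothianidin and 5.80 and 7.21 with salicylic acid, so the step between replicate numbers was larger than the difference between treatments.

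Large gene families showed medians close to 0.00, as all probe sets did. Near background such a median does not show likeness, since the median absolute difference in the lowest bin of mean level was 0.007. Glycosyl hydrolases of family 9 had median levels of 2.26 and 2.23 with clothianidin and 2.26 and 2.25 with salicylic acid. The UDP-glycosyltransferases were brighter, at 5.16 and 3.85 and at 4.03 and 4.90. Among 47 UDP-glycosyltransferases the median was -0.01 and the range -1.57 to 1.32, from UGT76B1 to UGT76C2, which inactivates cytokinin and was at 5.94 and 5.41 against 5.34 and 3.38. Among 23 cytochromes P450 the median was -0.05, with CYP71B22 highest at 1.55, at 5.19 and 3.53 with clothianidin and 2.81 on both salicylic acid arrays. Among 29 serine carboxypeptidase-like genes it was 0.00, with SCPL34 highest at 1.40. Among 14 expansins, which loosen cell walls, it was 0.00. EXPA16 was highest there, at 5.23 and 6.96 against 3.94 and 4.98, and EXPA8 lowest, at 8.30 and 2.85 against 10.09 and 2.78.

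The 22 TBL wall acetylation genes, 20 beta-glucosidases, 15 glycosyl hydrolases of family 9, 14 SWEET transporters, 11 tau glutathione S-transferases, 11 IQD genes and 10 RALF peptides had medians between -0.01 and 0.01. RALFL24, at 6.94 and 6.63 against 7.08 and 4.49, and BGLU16, at 8.26 and 7.51 against 8.07 and 5.68, had the largest clothianidin excess in their families. In both only salicylic acid replicate 2 was low.

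How much the comparison rests on single arrays was measured by leaving each out. Without salicylic acid replicate 1 the mean difference was under 2-fold for 86.5% of probe sets, and 19 passed the adjusted threshold in limma, all higher with salicylic acid. In that fit the remaining salicylic acid array is assumed to vary like the other groups. Of the 19, the 8 with a single named locus, chosen after their values were seen, were CML43, AT5G56460, AT5G22530, AT3G57100, AT3G47050, AT2G43580, AT1G47480 and AT2G37820. CML43, a calmodulin-like protein, was at 2.20 and 4.84 with salicylic acid and at 2.25 and 2.17 with clothianidin. AT2G43580, a chitinase, was at 2.06 and 4.07 against 2.08 and 2.07. AT5G22530 was at 2.43 and 8.49 against 4.40 and 4.27. For each of these 3 the left-out array was close to or below the clothianidin arrays, so each call rests on salicylic acid replicate 2 alone. Without salicylic acid replicate 2 the share under 2-fold was 91.2% and 0 passed, with 1011 at an unadjusted p under 0.05, and without clothianidin replicate 1 or 2 the shares were 94.7% and 92.8%, with 1 and 2 calls.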

How the data were processed

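The authors deposited a log2 level for each probe set. Per the submitters' processing notes, RMA and affy were used, with no version stated. The background step is not given in the sources used here. Values can be compared between arrays, and levels of different probe sets cannot. All 8 columns matched a sample. After 64 control probe sets were left out, 22746 were tested.

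Genes were named through the probe table and the TAIR10.1 gene table: 13436 probe sets had 1 gene matched to a locus (13286 loci), 503 had several genes, 77 had a gene with no match and 8730 had none. A locus with several probe sets was represented by its brightest. Mitochondrial genes were among the 77 and were grouped by the probe table's symbols after their values were seen.

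limma 3.58.1 (R 4.3.3) was fitted with lmFit and eBayes to all 8 arrays, with a mean for each of 4 groups and 4 residual degrees of freedom (prior 0.766). Tests were two-sided. The threshold for a call was 0.05 on p-values adjusted by Benjamini and Hochberg over all probe sets. Intervals are 95% intervals of that fit. The replicates came from independent experiments. Replicate numbers were not used as pairs. The number of arrays limits the precision. The fit was checked on simulated data, and the counts of arrays that do not overlap were not. That check required the estimates to follow the added changes and false calls to be rare. It set no requirement on how many added changes were called, so it does not show that the fit can call a true change.

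Named genes were the 10 largest differences in each direction among single-locus probe sets whose arrays did not overlap and whose higher mean was at least 1 above the mean 25th percentile. To these were added the 5 smallest p in each direction, the 8 genes furthest from untreated in each direction, members of lists with at least 3 measured (3 from each end where over 10), and 16 genes set by name. The members, lists and families were chosen with earlier results of these data known. The patterns for organelle genes were changed after the files were seen, to fit their locus tags. The alternatives were the 4 arrays alone, a robust prior with an intensity trend, leaving out dim probe sets, a block for the replicate number, median centring, repeated quantile normalization, array weights, a 4-fold threshold, the mean of a locus's probe sets and leaving out each array. A gene family among the 28 lists and families is not reported here. No sequence is shown.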

Additional observations from a re-analysis of the deposited data

Results flagged for a closer look

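In 8 of the named genes both clothianidin arrays lay on the other side of the untreated arrays from both salicylic acid arrays. None of these differences passed limma's adjusted threshold, and whether the opposite directions exceed the spread of the untreated arrays was not tested. Clothianidin minus salicylic acid was 1.53 for AT1G45110, 0.56 for AT1G32580, 0.44 for AT2G42710 and 0.44 for AT2G21290, with clothianidin above and salicylic acid below. For AT2G42710 clothianidin was only 0.063 above untreated. For AT1G55790 the difference was 1.97, but salicylic acid was only 0.02 below untreated there (-0.02 against 1.95 for clothianidin). The salicylic acid and untreated arrays of AT1G55790 lay between 2.34 and 2.38, below the mean 25th percentile of 2.49. With clothianidin below and salicylic acid above, the difference was -0.99 for GID1C, -0.34 for DER2.2 and -1.34 for scpl20. In scpl20, salicylic acid minus untreated was 0.14, but salicylic acid replicate 1, at 6.764, barely passed untreated replicate 1, at 6.763. Over all probe sets the first order occurred in 0.325% and the second in 0.246%. All 8 genes had been named for their large difference or small p between the treatments, a choice that favours such an order. Their number thus cannot be set against those shares. Groups of 2 arrays are too small for a check of outlying arrays.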

How the results depend on the processing

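The count of calls between clothianidin and salicylic acid was 0 in the fit of all arrays, and 0 to 19 over the fits without 1 array. At an unadjusted p under 0.05 the count was 277, and 122 with an intensity trend and robust prior, 183 without dim probe sets, and 295 to 1809 over the fits without 1 array. With the replicate number as a block it was 494, with 0 calls after adjustment. Replicate differences of the 2 groups correlated at 0.361 across genes, which was computed for 1 pair of groups only. The numbers were not taken as pairing because the labels do not say which experiment a number marks. Whether a number marks a shared batch was not tested. The share of probe sets under 2-fold was 97.4%, 96.8% without dim probe sets and 86.5% to 94.7% without 1 of the 4 arrays. Intervals inside 2-fold numbered 11584, 7173 without dim probe sets (fewer probe sets tested) and 9556 to 11387 without 1 array. Probe sets 2-fold apart were 126 with clothianidin higher and 75 with salicylic acid higher, 22 and 2 at 4-fold, and 536 to 1514 and 375 to 1431 without 1 of the 4 arrays, where a lone array cannot overlap itself. Treated minus untreated had 0 calls, 3 with the trend and robust prior, and 0 to 106 without 1 array, with 106 without untreated replicate 2. The cause of these shifts was not tested unless stated. Of the 30 genes named for their difference or p, those named for the difference were chosen with no overlap of arrays. Those named for p were not chosen that way but had no overlap either. This fixes the sign of all 30 when an array is left out. The median kept its sign in all alternatives for 2 of 28 lists and families, the phenylpropanoid list (-0.54) and the sugar transport list (-0.12).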

Other observations

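The imidacloprid leaves were set beside the probe sets that separated clothianidin from salicylic acid, with no test. Of the 126 with clothianidin higher, the imidacloprid mean was nearer clothianidin in 54, and of the 75 with salicylic acid higher it was nearer clothianidin in 47. Over all probe sets it was nearer clothianidin in 11078 of 22746. The median level of the 126 was 7.19 and 6.90 with clothianidin, 5.82 and 5.07 with salicylic acid, and 6.19 and 6.48 with imidacloprid. For the 75 it was 4.73 and 4.77, then 6.21 and 6.43, then 5.88 and 5.66.

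At the edge of the 2-fold rule, AT1G32810, at 4.36 and 4.62 with clothianidin and 5.42 and 5.57 with salicylic acid, lay just inside, and AT5G40470, at 4.84 and 5.46 against 5.74 and 6.56, just outside.

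A few genes, chosen after their values were seen, had single arrays that stood apart. AT5G18840 was at 5.45 on clothianidin replicate 2 and between 2.27 and 2.36 on every other array of the study. UGT73D1 was at 5.85 and 2.60 with clothianidin and at 3.25 and 7.43 with salicylic acid. TBL38 was higher on replicate 2 in 3 of the 4 groups, at 6.46 and 10.18 with clothianidin, 6.58 and 9.08 with salicylic acid and 5.93 and 9.66 untreated, but at 5.80 and 3.46 with imidacloprid. EXPA8 was lower on replicate 2 in all 4, at 8.30 and 2.85 with clothianidin, 10.09 and 2.78 with salicylic acid, 11.44 and 3.68 untreated and 5.86 and 2.89 with imidacloprid.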
